A study of Mus musculus with 6 samples.

Results

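Resident dermal macrophage genes were followed in mouse ear skin 1 day after imiquimod. They are 10 genes that mark tissue-resident and perivascular macrophages, chosen by name: Cd163, Lyve1, Folr2, Mrc1, C1qa, C1qb, C1qc, Adgre1, F13a1 and Pf4. All 10 were found among the 23518 gene symbols of the deposited table, and all 10 passed the filter on low values that left 15049 genes for testing. Total RNA of ear skin was sequenced from 3 HdR samples and 3 wild-type (WT) samples. HdR was read, from the design text of the series, as a deletion of the RING1 domain of HOIL1, the product of Rbck1 and a subunit of the linear ubiquitin chain assembly complex. Both genotypes had received 10 mg of a cream with 5% imiquimod, a Toll-like receptor agonist that provokes psoriasis-like inflammation, so no untreated skin was compared. The sources used here do not give age, sex, strain background or the cells in which the deletion acts, nor do they state that each sample is a separate mouse, so p-values measure the spread between these samples.

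Resident macrophages of the dermis sit along blood vessels and between collagen fibres, where they take up debris, haemoglobin and matrix fragments. They are long-lived cells that carry scavenger and lectin receptors, and they are a main tissue source of C1q, the recognition molecule of the classical complement pathway. In inflamed skin they are joined by monocytes from the blood, which carry a different set of genes. No member is strictly confined to these cells: Lyve1 is also a gene of lymphatic endothelium, Pf4 and F13a1 of megakaryocytes and platelets, and Adgre1 of Langerhans cells and eosinophils.

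Values are normalised coverage, read from the numbers as aligned bases of a gene, per Mb of a library's effective size (bases per Mb). Library totals ran from 4433 to 5264 Mb in HdR and from 5038 to 5966 Mb in WT, and 1 base per Mb then stood for 11.7 to 23.6 read pairs of 300 bases. The thinnest member value, Cd163 in WT replicate 2, rested on 234 read pairs by the same reading. Rbck1 had 23.9, 13 and 19.7 bases per Mb in HdR replicates 1 to 3, against 66.6, 55.1 and 64.1 in WT. The defining skin genes Krt5, Krt14, Krt10, Krt1, Lor, Col1a1 and Col3a1 were covered in every library, and Col1a1 (-1.90), Krt1 (-1.03) and Krt14 (-0.71) fell in log2 terms, Krt1 not after the length correction described next. Transcript length moved with genotype. In the decile of tested genes with the shortest transcripts (up to 1289 nt) the median log2 change was 0.63, and in the longest decile (from 6642 nt) it was -0.58. The change of each resident macrophage gene is therefore also given after length correction, in which the trend with transcript length was taken out of every library.

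Of the 10 resident macrophage genes, 7 rose and 0 fell in HdR skin (limma, Benjamini-Hochberg adjusted p under 0.05), where 12.7% of all tested genes were higher and 17.9% lower. Those that rose were Cd163, Lyve1, Folr2, Mrc1, C1qa, F13a1 and Pf4. In 6 of the 10 genes every HdR value lay above every WT value, against 20.9% of all tested genes. The median log2 change of the 10 genes, taken as HdR minus WT after a pseudocount of 1, was 0.97, and that of all tested genes was -0.13. After length correction 5 rose (Cd163, Lyve1, Mrc1, F13a1 and Pf4), where 10.9% of genes were higher, and the medians were 0.81 and 0.00. With the replicate number as a block, a pairing the labels do not state, 9 rose as scaled, where 18.3% of genes were higher. After length correction 9 rose with this block, where 16.5% were higher. In whole skin more cells of a type and more RNA per cell cannot be told apart.

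**Figure D1:**
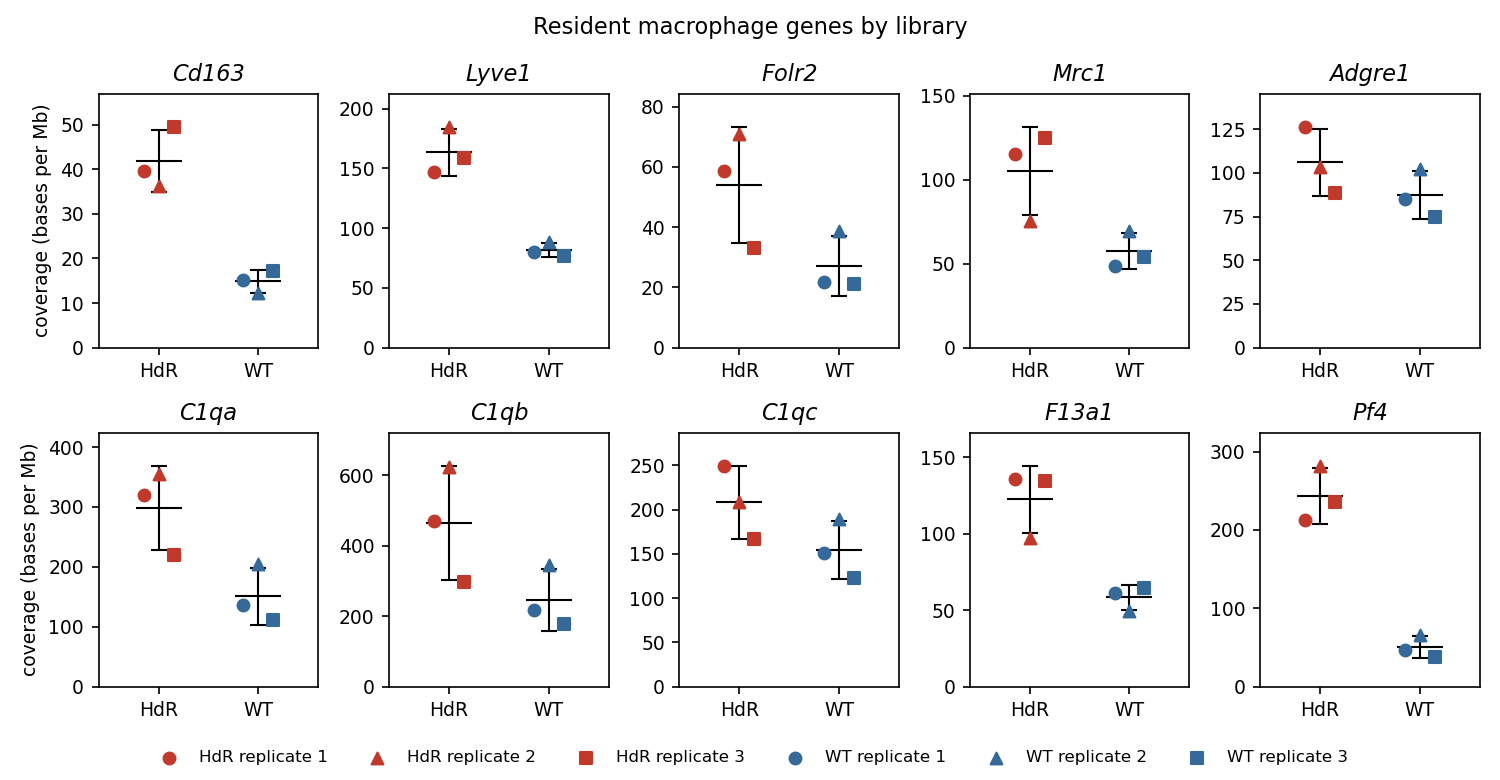
Coverage (bases per Mb, vertical axis from 0) of each resident macrophage gene in the 3 HdR and 3 WT libraries, with marker shape giving the replicate number and bars the mean ± SD. The genotypes do not overlap for Cd163, Lyve1, Mrc1, C1qa, F13a1 and Pf4, and they overlap for Folr2, C1qb, C1qc and Adgre1.

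Among the receptors, Cd163, the scavenger receptor for haptoglobin-haemoglobin complexes, was the least covered and the most changed. It had 39.5, 36.2 and 49.6 bases per Mb in HdR replicates 1 to 3, against 15.1, 12.2 and 17.2 in WT. Every HdR sample was well above every WT sample. The log2 change was 1.43 (SE 0.19; limma adjusted p = 0.00465), and 1.77 after length correction (limma adjusted p = 0.00131). The gene (ENSMUSG00000008845.9) lies at 124304656 to 124330527 on the plus strand of chromosome 6 of GRCm38.

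Lyve1 encodes a hyaluronan receptor that marks perivascular macrophages. It read 147, 185 and 159 bases per Mb in HdR skin, against 80.3, 88.4 and 76.8 in WT skin. The WT values were close to each other and the lowest HdR value stood well above them. The log2 change was 0.99 (SE 0.16; limma adjusted p = 0.00787), and 1.08 after length correction (limma adjusted p = 0.00794). Lyve1 (ENSMUSG00000030787.4) is on the minus strand of chromosome 7, at 110850607 to 110863239.

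Mrc1, the mannose receptor CD206 that takes up glycoproteins and collagen fragments, read 115, 75.3 and 125 bases per Mb in HdR and 48.7, 69.5 and 54.1 in WT. HdR replicate 2 was low and only slightly above WT replicate 2, the highest WT sample. The log2 change was 0.85 (SE 0.23; limma adjusted p = 0.0262), and 1.26 after length correction (limma adjusted p = 0.0122). The call was lost without HdR replicate 1 (0.76), HdR replicate 3 (0.70), WT replicate 1 (0.74) or WT replicate 3 (0.82), with limma adjusted p values from 0.0657 to 0.108, and with total scaling (0.53, limma adjusted p = 0.142). Mrc1 (ENSMUSG00000026712.3) is on chromosome 2, plus strand, at 14229392 to 14332057.

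Folr2, the folate receptor beta of tissue macrophages, read 58.5, 70.8 and 33.0 bases per Mb in HdR and 21.9, 38.6 and 21.0 in WT. HdR replicate 3 lay below WT replicate 2, so the genotypes overlapped. Its log2 change of 0.96 (SE 0.32) only just passed (limma adjusted p = 0.0476). After length correction the change was 0.53 and did not pass (limma adjusted p = 0.139), although it did with the replicate number as a block as well (limma adjusted p = 0.0450). It also failed with total scaling (0.64, limma adjusted p = 0.0947) and without HdR replicate 1 (0.87), HdR replicate 2 (0.73), WT replicate 1 (0.83) or WT replicate 3 (0.81), with limma adjusted p values from 0.122 to 0.158. Folr2 (ENSMUSG00000032725.10; chromosome 7, minus strand, 101839988 to 101857194) shares 975 exonic bases with the opposite-strand gene Gm10602. The sources used here do not give strandedness, so reads of these 2 genes cannot be told apart.

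C1qa, C1qb and C1qc encode the chains of C1q and lie side by side on the minus strand of chromosome 4, at 136895917 to 136898803, 136880129 to 136886187 and 136889804 to 136893065 of GRCm38. Each C1q molecule needs all of these chains. C1qa read 321, 355 and 219 bases per Mb in HdR, against 136, 204 and 112 in WT, and the genotypes did not overlap. C1qb read 471, 623 and 297 in HdR, against 216, 345 and 177 in WT. C1qc read 249, 209 and 167 in HdR, against 151, 189 and 123 in WT. For C1qb and C1qc, HdR replicate 3 lay below WT replicate 2.

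C1qa rose, with a log2 change of 1.00 (SE 0.26; limma adjusted p = 0.0254). C1qb missed the threshold at 0.90 (SE 0.32; limma adjusted p = 0.0579), and C1qc at 0.43 (SE 0.22; limma adjusted p = 0.144). With the replicate number as a block both passed (limma adjusted p = 0.00182 for C1qb and 0.0434 for C1qc). After length correction none of the chains passed, at 0.51 for C1qa (limma adjusted p = 0.0796), 0.44 for C1qb (0.198) and 0.01 for C1qc (0.982), and with the block added C1qa (limma adjusted p = 0.0242) and C1qb (0.0332) did. C1qa lost its call without HdR replicate 1 (0.93), HdR replicate 2 (0.86), WT replicate 1 (0.95) or WT replicate 3 (0.82), with limma adjusted p values from 0.0711 to 0.0949. C1qb passed without HdR replicate 3 (1.19, limma adjusted p = 0.0309) or WT replicate 2 (1.19, limma adjusted p = 0.0136), and C1qc without WT replicate 2 (0.61, limma adjusted p = 0.0455).

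Of the summed coverage per kb of the chains, C1qa made up 32.5%, 31.4% and 33.8% in HdR and 28.7%, 29.3% and 28.8% in WT. C1qc made up 21.9%, 16.0% and 22.2% in HdR and 27.5%, 23.5% and 27.5% in WT. The genotypes did not overlap for either share, and they did for C1qb. For C1qa and for C1qc the exact permutation p was 0.1 (two-sided, adjusted p = 0.15 over the 3 chains). This is the smallest that 3 against 3 samples allow before adjustment. For C1qb the exact permutation p was 0.5. The shares of a library add up to the whole, so they are not separate results. The longest transcripts of the chains are alike, at 1040 nt for C1qa, 1088 nt for C1qb and 1203 nt for C1qc.

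Pf4, a chemokine stored in platelet granules and also made by resident macrophages, had the highest change of the 10 genes as scaled and came after Cd163 once length was corrected for. It read 213, 282 and 235 bases per Mb in HdR and 47.3, 66.0 and 37.7 in WT. The lowest HdR value was far above the highest WT value. The log2 change was 2.28 (SE 0.22; limma adjusted p = 0.00161), higher than that of 99.9% of all tested genes. After length correction it was 1.64 (limma adjusted p = 0.00170). Pf4 (ENSMUSG00000029373.7) is a short gene on the plus strand of chromosome 5, at 90772435 to 90773383.

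F13a1, which encodes the A subunit of the fibrin-crosslinking coagulation factor XIII, read 136, 97.1 and 135 bases per Mb in HdR and 61.3, 49.4 and 64.7 in WT. The genotypes did not overlap, and replicate 2 was the lowest sample in each. The log2 change was 1.05 (SE 0.19; limma adjusted p = 0.0105), and 1.33 after length correction (limma adjusted p = 0.00261). With total scaling the change of 0.73 missed the threshold (limma adjusted p = 0.0530). F13a1 (ENSMUSG00000039109.16; chromosome 13, minus strand, 36867178 to 37050244) shares 74 exonic bases with the opposite-strand Gm30489.

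Adgre1 encodes F4/80, the classical surface antigen of mouse macrophages. It read 126, 103 and 88.6 bases per Mb in HdR and 84.8, 102 and 74.8 in WT, with much overlap between the genotypes. Its log2 change of 0.28 (SE 0.19) did not pass (limma adjusted p = 0.275) and was -0.04 with total scaling. After length correction it was 0.44 (limma adjusted p = 0.104), and it passed there with the replicate block added (limma adjusted p = 0.0359). Adgre1 (ENSMUSG00000004730.15) is on the plus strand of chromosome 17, at 57358691 to 57483527.

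The sequence before the start site is shown for Pf4 and Cd163, which had the highest changes, and in part for C1qc, which shares a motif with Pf4. A short stretch just after 1 of the 2 F13a1 starts is shown for the same motif. Capitals mark GAGGAAGT or its reverse complement ACTTCCTC, a core sequence bound by the myeloid factor PU.1 and other ETS factors. Sequences are from RefSeq on GRCm38.p6 and run 5′ to 3′ on the gene's strand.
Pf4, 250 bases before the start, chr5:90772185-90772434, plus strand: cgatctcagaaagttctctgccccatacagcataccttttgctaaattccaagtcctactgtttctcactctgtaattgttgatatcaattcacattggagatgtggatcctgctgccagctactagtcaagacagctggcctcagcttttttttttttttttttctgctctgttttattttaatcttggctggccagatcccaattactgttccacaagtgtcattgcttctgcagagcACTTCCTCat
Cd163, 250 bases before the start, chr6:124304401-124304650, plus strand: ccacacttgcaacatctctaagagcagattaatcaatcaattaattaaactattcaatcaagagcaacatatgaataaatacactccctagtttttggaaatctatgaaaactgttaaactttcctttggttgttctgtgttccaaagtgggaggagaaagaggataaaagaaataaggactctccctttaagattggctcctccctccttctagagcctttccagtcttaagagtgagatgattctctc
C1qc, 99 bases, chr4:136893066-136893164, minus strand: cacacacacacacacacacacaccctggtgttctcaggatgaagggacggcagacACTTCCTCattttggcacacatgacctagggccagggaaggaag
F13a1, 30 bases about the match, after the start, chr13:37049181-37049210, minus strand: cgagtccttttGAGGAAGTacccagaggca

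Promoter windows, from 250 bases before to 50 after a RefSeq start, were at hand for 7 of the 10 genes, with 9 windows in all. GAGGAAGT occurred on either strand in 3 of the 9 windows, of Pf4, C1qc and F13a1, and in 3.2% of all 32851 windows. Counted from the start site, the match began at -10 in Pf4, at -195 in C1qc and at 15 in F13a1. The Maf half-site TGCTGA (reverse complement TCAGCA) occurred in 3 of the 9 windows, at both Folr2 starts and at C1qb, against 19.5% of all windows. The AP-1 motif TGANTCA occurred in 1, of Folr2, against 7.81%. TGCTGA and TGANTCA can share the letters TGA. Pf4, F13a1 and C1qc, which carry GAGGAAGT, had log2 changes of 2.28, 1.05 and 0.43. Cd163 and Mrc1, with none of the motifs in their windows, had 1.43 and 0.85. Folr2 and C1qb, without GAGGAAGT but with another motif, had 0.96 and 0.90. A link between motif and change was not tested.

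Read against transcript length, the 10 genes fell into a short and a long set. Folr2, C1qa, C1qb, C1qc and Pf4 have longest transcripts of 588 to 1204 nt and stand in the shortest decile of tested genes, of which 49.2% were higher in HdR. Within this decile Pf4 stood far above the median change of 0.63, C1qa, Folr2 and C1qb moderately above it, and C1qc below it. Lyve1 and Adgre1 (2893 and 3238 nt) stand in a decile with a median of -0.14, F13a1 (3952 nt) in one with -0.28, Cd163 (4443 nt) in one with -0.36 and Mrc1 (5374 nt) in one with -0.46. In these deciles 7.72%, 5.43%, 4.23% and 2.62% of genes were higher in HdR. The log2 change of each of these 5 longer genes was above the median of its decile and was larger after correction.

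**Figure D2:**
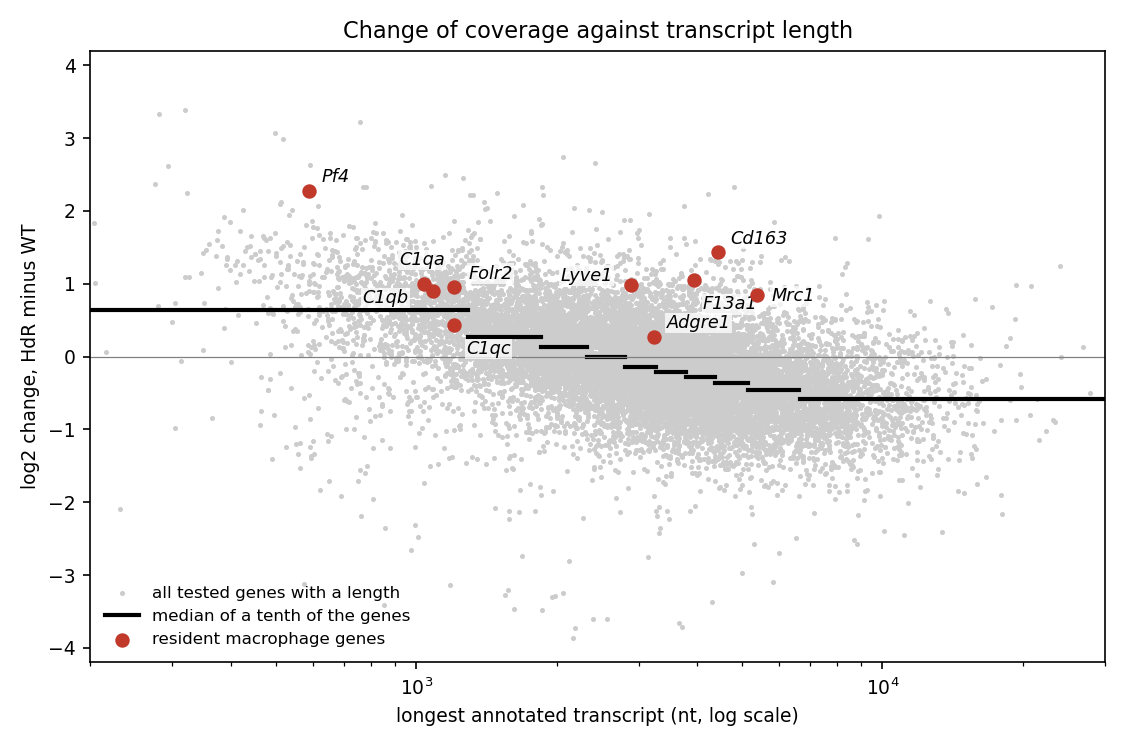
Log2 change (HdR minus WT, vertical axis) against the length of the longest annotated transcript (nt, log scale) for all tested genes (grey), with the median of each decile of genes by length (black bars) and the resident macrophage genes in red. Cd163, F13a1, Mrc1 and Lyve1 lie above genes of like length, while C1qa, C1qb, Folr2 and C1qc lie near the raised level of short genes.

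**Figure D3:**
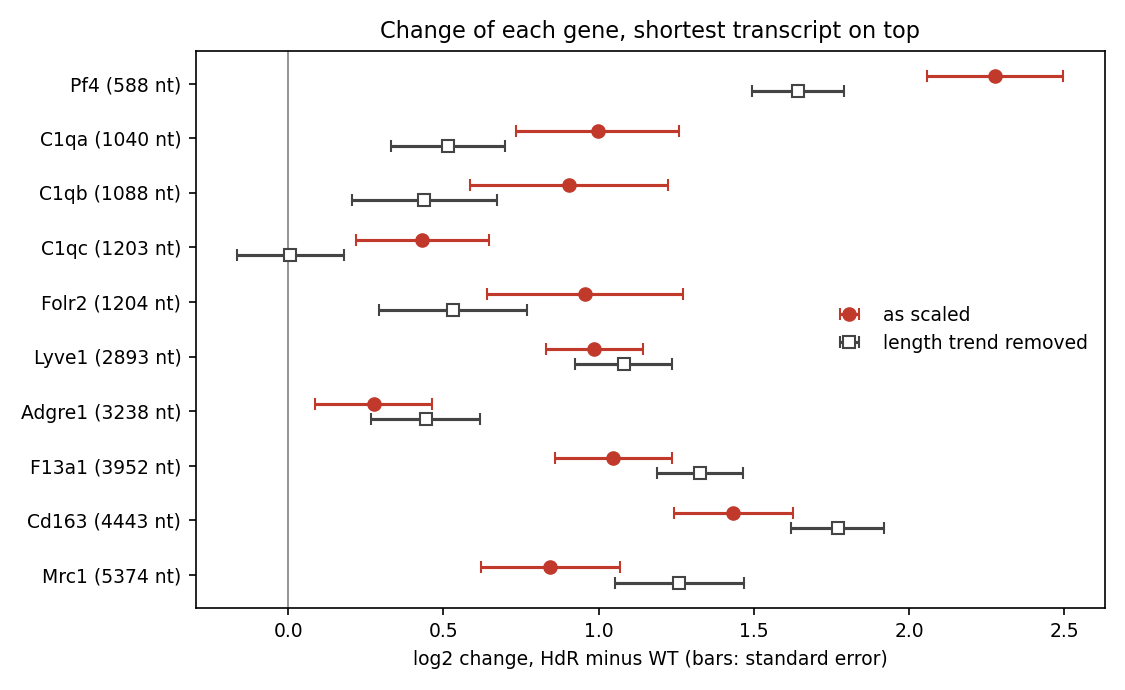
Log2 change (HdR minus WT) ± standard error of each gene as scaled (filled) and after length correction (open), ordered from the shortest transcript at the top to the longest. Removal moved Pf4 to 1.64 and C1qc to 0.01 and moved Cd163 to 1.77 and Mrc1 to 1.26.

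The genes also differed in how they varied between libraries of a genotype. Of the WT libraries, replicate 2 was the highest for 8 of the 10 genes and the lowest for Cd163 and F13a1. Of the HdR libraries, replicate 2 was the highest for Lyve1, Folr2, C1qa, C1qb and Pf4 and the lowest for Cd163, Mrc1 and F13a1. HdR replicate 3 was the lowest for Folr2, Adgre1 and all C1q chains. Folr2 and C1qb spread most. Deviations of Folr2 from its genotype mean ran from -0.63 to 0.45 on the log2 scale in HdR and from -0.30 to 0.55 in WT, and those of C1qb from -0.57 to 0.49 in HdR and from -0.41 to 0.54 in WT. Length slopes, in log2 deviation per doubling of transcript length, were -0.13, -0.27 and -0.08 in HdR replicates 1 to 3 and 0.19, 0.04 and 0.25 in WT, so replicate 2 was the library with the most negative or least positive slope in each genotype. The part of the slopes in the spread of single members was not tested.

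Cd163, Lyve1 and Pf4 passed under all 18 alternative settings tried, and F13a1 under all but total scaling. With a single library left out, 4 of the 10 genes rose without HdR replicate 1, WT replicate 1 or WT replicate 3, where 6.96%, 1.33% and 4.1% of all tested genes were higher. The count was 5 without HdR replicate 2 (5.18% of all genes), 7 without HdR replicate 3 (10.3%) and 9 without WT replicate 2 (17.9%). With total scaling the count was 4 (6.1% of all genes). Cd163 ranged from 1.13 to 1.79, Lyve1 from 0.67 to 1.08, F13a1 from 0.73 to 1.42 and Pf4 from 1.64 to 2.51 in log2 change.

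**Figure D4:**
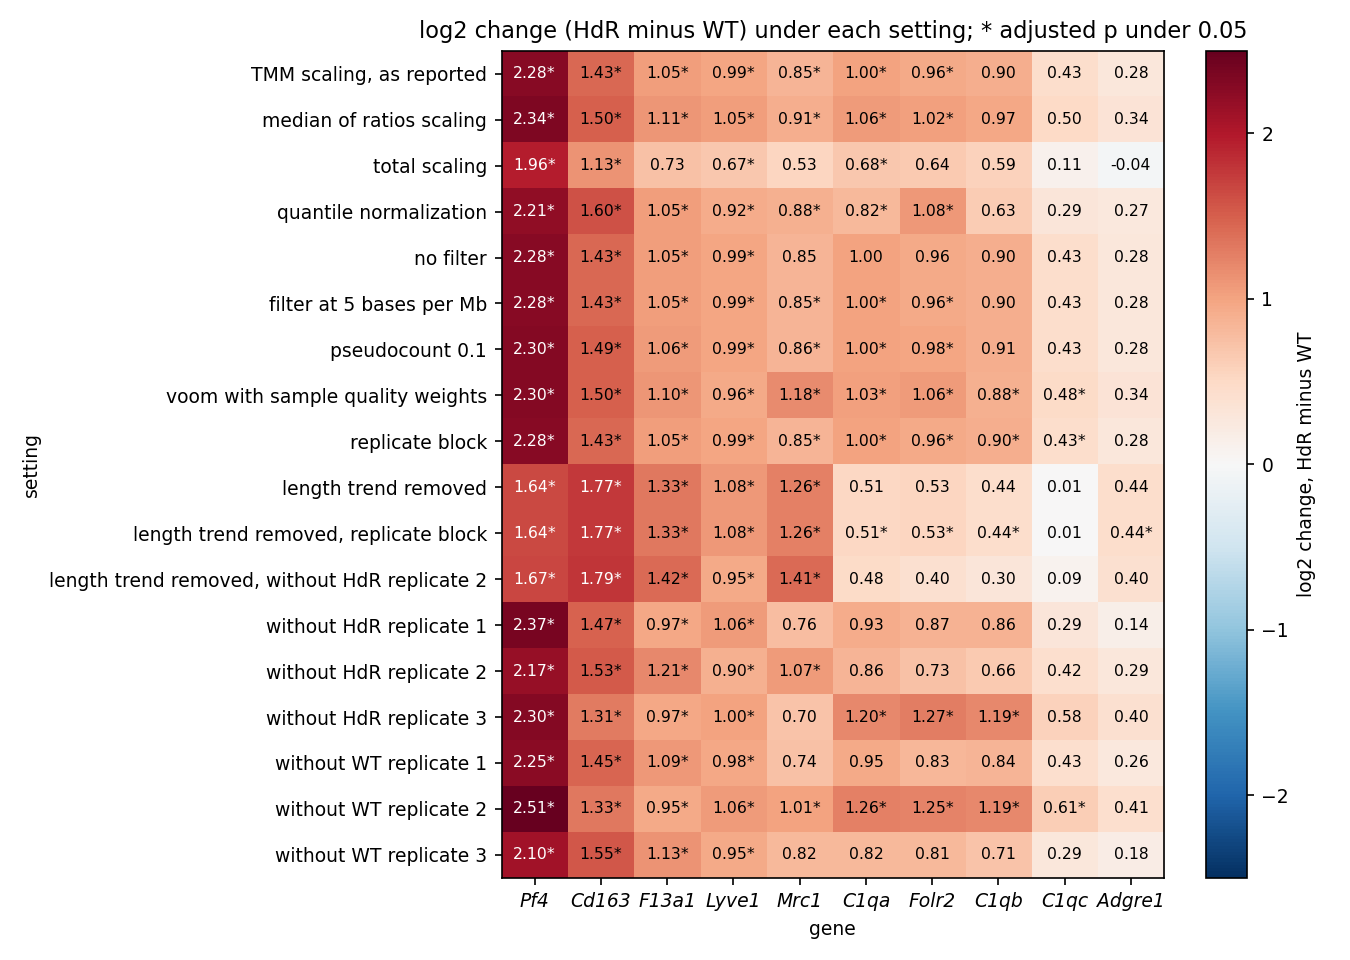
Log2 change (HdR minus WT, colour and number) of each gene (columns) under each setting (listed down the side), with a star where the limma adjusted p was under 0.05. Pf4, Cd163 and Lyve1 carry a star throughout and F13a1 everywhere except with total scaling, whereas C1qb, C1qc and Adgre1 carry few.

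Compared per kb of the longest transcript, the C1q chains and Pf4 were the best covered. C1qb averaged 426 ± 150 bases per Mb per kb in HdR skin and 226 ± 80.6 in WT skin (SD, n = 3 each, as for all levels per kb). Pf4 averaged 414 ± 60.0 in HdR and 85.6 ± 24.5 in WT, which placed it at rank 2 of 10 in HdR and at rank 4 in WT. C1qa averaged 287 ± 67.9 in HdR and 145 ± 46.0 in WT, and C1qc 173 ± 34.4 in HdR and 128 ± 27.5 in WT. The receptors Lyve1, Folr2 and Adgre1 were far below these. Lyve1 averaged 56.6 ± 6.74 in HdR and 28.3 ± 2.06 in WT, Folr2 44.9 ± 16.0 in HdR and 22.5 ± 8.23 in WT, and Adgre1 32.8 ± 5.89 in HdR and 27.0 ± 4.30 in WT. F13a1, Mrc1 and Cd163 closed the order in both genotypes, with Cd163 at 9.40 ± 1.56 in HdR and 3.34 ± 0.57 in WT. In HdR the library ranges of neighbours overlapped between C1qb and Pf4 and along Lyve1, Folr2, Adgre1 and F13a1, and the other neighbours were apart. In WT they overlapped along C1qb, C1qa, C1qc and Pf4, along Lyve1, Adgre1 and Folr2, and between F13a1 and Mrc1. Levels per kb depend on the transcript taken: with the median transcript length Lyve1 read 204 in HdR and 102 in WT, and Adgre1 116 in HdR and 95.2 in WT.

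Csf1r, the receptor for the growth factor on which macrophages depend, gave a scale within each library. Csf1r itself averaged 52.8 ± 9.50 bases per Mb in HdR and 35.9 ± 2.54 in WT (SD, n = 3 each) and rose (log2 change 0.53, limma adjusted p = 0.0482). Its longest transcript has 4701 nt and its change after length correction was 0.89, while the ratios are taken before correction. The ratio of Pf4 to Csf1r was 3.88, 6.65 and 3.85 in HdR and 1.22, 1.91 and 1.10 in WT. That of Cd163 was 0.72, 0.85 and 0.81 in HdR and 0.39, 0.35 and 0.50 in WT. The ratios of Lyve1 and F13a1 to Csf1r did not overlap between the genotypes either, while those of the other 6 genes did. Against Cd68, an endosomal glycoprotein gene of macrophages, the ratio stood apart upwards for Pf4 alone, and downwards for C1qc and Adgre1. The ratios of Cd163, Lyve1 and F13a1 to Cd68 overlapped, at 1.48, 1.09 and 1.10 times the WT mean in HdR. Cd68 has a longest transcript of 1230 nt and changed by 0.84 as scaled and 0.42 after length correction. Cd163, Lyve1 and F13a1, with longer transcripts, changed by 1.77, 1.08 and 1.33 after correction. Against Lyz2, the lysozyme gene of myeloid cells, the ratio was higher in every HdR sample than in any WT sample for Pf4. It was lower in every HdR sample than in any WT sample for Mrc1, C1qa, C1qc and Adgre1. Lyz2, with a longest transcript of 1316 nt, changed by 1.28 after length correction. Pf4 then changed by 1.64, Mrc1 by 1.26, C1qa by 0.51, C1qc by 0.01 and Adgre1 by 0.44. The part of length in the ratios was not tested. Ratios were taken for the 10 genes only, so the share of all tested genes that would stand apart is not known. As scaled, without a ratio, 20.9% of all tested genes stood apart upwards and 30.7% downwards. The numbers of ratios that stood apart are therefore not read as particular to these genes. With 3 against 3 samples no ratio could go below an exact permutation p = 0.1 (two-sided), and the smallest adjusted p over the 10 genes was 0.25 for Csf1r, 0.333 for Cd68 and 0.2 for Lyz2.

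Other genes of the resident macrophage programme were taken from a list of 32, of which 31 were tested. Of these, 16 rose and 0 fell, with a median log2 change of 0.75. After length correction 14 rose, where 10.9% of all genes were higher. Fcgrt, the neonatal Fc receptor gene, then fell (-0.43, limma adjusted p = 0.0458), as did 1263 of all 14901 genes with a length. The 4 genes of the list with the smallest p were Ninj1, Clec10a, Mgl2 and Fcna. Ninj1, which encodes an adhesion protein that ruptures membranes of dying cells, read 156, 158 and 160 bases per Mb in HdR and 52.8, 79.3 and 51.3 in WT. Clec10a and Mgl2, a pair of related lectin genes whose reads could be shared, had log2 changes of 1.37 and 0.97, and 1.32 and 0.69 after length correction. Fcna, the gene of ficolin A, an activator of the lectin pathway of complement, had 1.22, and 0.86 after correction. Fcna had no call without WT replicate 1. The count of 16 was 3 without WT replicate 1 and 9 without HdR replicate 2. Over all tested genes, 12.7% were higher with all libraries, 1.33% without WT replicate 1 and 5.18% without HdR replicate 2.

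Of 20 genes shared by macrophages and other myeloid cells, all tested, 6 rose and 0 fell, with a median log2 change of 0.52. They were Cd14, Lyz2, Tyrobp, Fcgr3, Cd68 and Csf1r. Cd14, the lipopolysaccharide co-receptor, changed by 1.08 and Lyz2 by 1.67 on the log2 scale, and by 0.81 and 1.28 after length correction. Also after correction 6 rose, with Msr1 (1.20) in and Cd68 (0.42) out, where 10.9% of all genes were higher. Tyrobp, an adaptor of activating receptors, read 219, 315 and 182 bases per Mb in HdR and 54.8, 106 and 43.4 in WT. The count of 6 was 2 without WT replicate 1, 3 without WT replicate 3 and 10 without WT replicate 2, and 11 with the replicate block. In the same order, 1.33%, 4.1%, 17.9% and 18.3% of all tested genes were higher, against 12.7% in the main test.

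Of the growth factors, receptors and regulators of macrophages, 18 were tested, 2 rose and 0 fell, where 12.7% of all tested genes were higher, with a median log2 change of 0.00. They were the cytokine genes Il10, with a log2 change of 1.64, and Il13, with 0.65. Il13 was near the floor, at 1.22, 1.59 and 1.32 bases per Mb in HdR and 0.57, 0.72 and 0.28 in WT. Only the HdR libraries brought Il13 past the filter, so its call is not support for a rise. The count was 0 without HdR replicate 1, HdR replicate 2, WT replicate 1 or WT replicate 3. Of all tested genes 6.96%, 5.18%, 1.33% and 4.1% were higher there. The count was 1 without HdR replicate 3 (10.3% of all genes) and 1 after length correction (10.9%), which left Il10.

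Complement partners of C1q were mixed, with 3 of 18 tested higher, 1 lower and a median of 0.06. Over all tested genes 12.7% were higher and 17.9% lower. Cfd, the alternative pathway protease factor D, changed by 1.73 (limma adjusted p = 0.00397) and the central component C3 by 0.63. C2, which is cleaved downstream of C1q, fell (-0.83, limma adjusted p = 0.0341). Cfd passed under all settings tried in which a single library was left out. The count of higher genes was 1 without HdR replicate 1, HdR replicate 3, WT replicate 1 or WT replicate 3. Of all tested genes 6.96%, 10.3%, 1.33% and 4.1% were higher there. C2 had a call only without WT replicate 3 among the settings with a single library left out. After length correction Cfd was at 1.20, C3 at 1.02 and C2 at -0.79, all past the threshold, and Serping1, the C1 inhibitor gene, fell as well (-0.48).

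Among 16 genes of haem and iron handling, the task that Cd163 serves, 5 rose and 1 fell, with a median of 0.25. Of all tested genes 12.7% were higher and 17.9% lower. The ferritin subunits Ftl1 and Fth1 changed by 1.57 and 1.55 (limma adjusted p = 0.0122 for each), and Blvrb, Hp and Hmox1 by 0.85, 0.65 and 0.57. Slc40a1, the iron exporter ferroportin, fell (-0.98, limma adjusted p = 0.00979). After length correction Ftl1 (1.06), Fth1 (1.42) and Lrp1 (0.91) were higher and Slc40a1 (-0.70) and Hpx (-1.40) lower. Of all 14901 genes with a length, 10.9% were then higher and 1263 genes lower. The count of 5 was 0 without WT replicate 1, 2 without WT replicate 3 and 3 without any 1 of the HdR replicates. Of all tested genes 1.33% and 4.1% were higher without these WT replicates, and 5.18% to 10.3% without an HdR replicate. Ferritin reads can be split with processed copies of the ferritin genes.

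**Figure D5:**
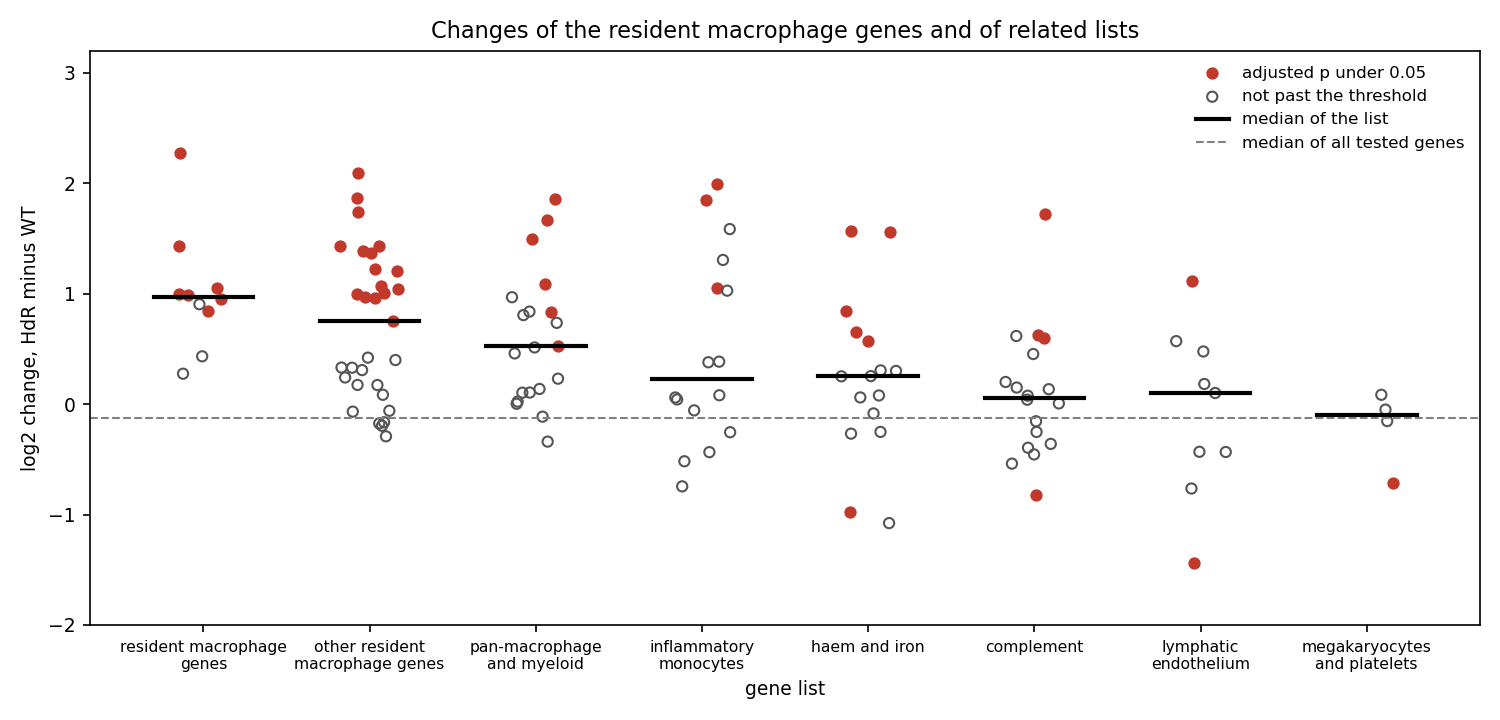
Log2 change (HdR minus WT, vertical axis) of each tested gene in the resident macrophage genes and in related lists, filled where the limma adjusted p was under 0.05, with the median of each list (black) and of all tested genes (dashed). The medians were 0.97 for the resident macrophage genes, 0.75 for other genes of that programme, 0.52 for pan-macrophage and myeloid genes and -0.10 for megakaryocyte and platelet genes.

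Cell types that share members were examined through their own markers. Of the lymphatic endothelial list, 9 of 10 genes were tested. Nts rose (1.12), Tbx1 fell (-1.44), and Prox1 and Flt4, the defining transcription factor and growth factor receptor, read 5.89 ± 0.80 and 5.14 ± 2.13 bases per Mb in HdR and 8.29 ± 1.01 and 9.41 ± 3.48 in WT, without passing. Prox1 had a log2 change of -0.43, and 0.10 after length correction. Also after correction Nts did not pass (0.71, limma adjusted p = 0.0855), Reln rose (1.16) and Tbx1 (-1.44) and Ccl21a (-0.98) fell. The summed level of the list was 565 to 725 in HdR and 463 to 823 in WT, so it overlapped, while Lyve1 did not. Most of this sum was 1 gene, Fgl2, at 303 to 472 in HdR and 242 to 559 in WT. Nts had no call without HdR replicate 1, HdR replicate 2, WT replicate 1 or WT replicate 3, and Tbx1 none without HdR replicate 2, WT replicate 1 or WT replicate 3.

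Of the megakaryocyte and platelet list, only 4 of 13 genes were covered well enough to test. Of these, 0 rose and Itgb3 fell (-0.71, limma adjusted p = 0.0376), where 12.7% of all tested genes were higher and 17.9% lower. The change of Itgb3 was -0.27 and did not pass after length correction, and it had no call without HdR replicate 2, HdR replicate 3, WT replicate 1 or WT replicate 3. The platelet genes Ppbp, Gp9, Gp5, Gp6, Treml1 and Tubb1 did not pass the filter, with Ppbp at 0.71, 0.93 and 1.43 bases per Mb in HdR and 0.15, 0.63 and 0.08 in WT. The summed level of the list was 40.2 to 47.7 in HdR and 43.0 to 51.4 in WT, while Pf4 alone was 213 to 282 in HdR and 37.7 to 66.0 in WT.

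Inflammatory monocyte and activated macrophage genes, of which 16 of 17 were tested, rose in 3 cases: F10 (1.99), Tnf (1.05) and Il1b (1.85). None fell, and the median log2 change of the list was 0.23. Every HdR value lay above every WT value for 3 of these genes, against 20.9% of all tested genes. For 2, Vcan (-0.75) and Fn1 (-0.52), every HdR value lay below, against 30.7%, without passing. After length correction these 2 were at -0.15 and 0.02. The summed level of the list was 847 to 1611 in HdR and 669 to 1464 in WT, so it overlapped. Of all tested genes 12.7% were higher and 17.9% lower, the shares to set beside the count of this and the following lists. F10 passed with any single library left out, as did Tnf, and Il1b did except without HdR replicate 2, while Tnf did not pass with total scaling. After length correction they were at 1.98, 0.77 and 1.48 for F10, Tnf and Il1b and still passed. The count of 3 was 5 after length correction, with the replicate block or without WT replicate 2. In these settings 10.9%, 18.3% and 17.9% of all tested genes were higher. Of the eosinophil list 3 of 8 genes were tested and Ear2 rose (1.80, and 1.20 after length correction). Summed levels were 39.2 to 49.4 in HdR and 11.5 to 21.8 in WT, but 4.92 to 8.99 in HdR and 2.84 to 7.28 in WT without Ear2. The defining granule gene Epx was at 0 in 3 of the 6 libraries and at most 0.08 bases per Mb in the others. Of the Langerhans cell list Cd207 rose (0.64), a call lost after length correction (0.33, limma adjusted p = 0.154) and without HdR replicate 1, HdR replicate 2, WT replicate 1 or WT replicate 3. Of 10 dendritic cell genes Cd209a (1.25), Flt3 (0.84) and H2-Ab1 (0.90) rose and Dpp4 fell (-1.19), and of these H2-Ab1 did not pass after length correction (0.48). The count of 3 was 0 without WT replicate 1, 1 without HdR replicate 2 or WT replicate 3 and 5 without HdR replicate 3. The shares of all tested genes that were higher were 1.33%, 5.18%, 4.1% and 10.3%, in that order. Dpp4 passed with any single library left out. The summed dendritic cell level was 363 to 609 in HdR and 263 to 328 in WT, but 47.8 to 96.0 in HdR and 55.8 to 76.6 in WT without H2-Ab1, so that these sums overlapped. Of 7 neutrophil genes tested 5 rose, with summed levels of 701 to 3188 in HdR and 145 to 200 in WT, and Hbb-bs (1.10) and Hbb-bt (1.24) rose among 5 blood genes. The summed blood level was 627 to 867 in HdR and 283 to 532 in WT, and neither globin gene passed after length correction or without HdR replicate 2, nor Hbb-bs without WT replicate 1 or WT replicate 3. Neutrophil genes and the summed level of blood genes thus moved with the resident macrophage genes, and their part in these changes was not tested.

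By the mean of the 10 genes' centred log2 values over the 6 libraries, the genes with the most similar profile were Gpx1, Timm8a1, Tnfsfm13, Tmem147 and H2-Aa. Their root mean square differences from that profile ran from 0.06 to 0.08 on the log2 scale, among 11685 genes with a mean of at least 5 bases per Mb. H2-Aa, an MHC class II chain, read 737, 684 and 519 bases per Mb in HdR and 286, 380 and 283 in WT. Gpx1, a glutathione peroxidase gene of 1072 nt, had a log2 change of 1.00, and 0.53 after length correction. Tnfsfm13 is a readthrough gene that shares its exons with its neighbours, so its reads may be theirs.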

How the data were processed

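RNA from ear skin of 3 HdR and 3 WT samples was sequenced. The deposited table holds whole numbers per gene, read here as a coverage signal in aligned bases. The labels do not state the unit. The reading rests on 1656 values equal to 300, taken as the bases of a read pair, and on 10.2% of values under 3000 being multiples of it, and read-pair figures depend on it. GRCm38 is the build per the submitters' processing notes. The sources used here do not name the aligner, counting program, annotation or strandedness. The values were not taken as read counts, so the planned log-scale test replaced a count test. Scaling to bases per Mb used trimmed means of M values (30% and 5% trimmed). A gene was tested if 3 or more libraries reached 1 base per Mb. Tests used limma-trend with robust variances (limma 3.58.1 under R 4.3.3) after adding a pseudocount of 1 and taking log2. They were two-sided, adjusted by Benjamini-Hochberg over 15049 genes, with a threshold of 0.05. Fold changes on this scale understate those of low genes. Length correction removed from each library a spline (4 degrees of freedom) and its constant, fitted on log2 longest transcript length (GENCODE) over the genes' deviations from their means. A length was known for 99.0% of tested genes. The code was tested on simulated data.

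The members and lists were chosen with earlier results of these data known. Named are all members, the targeted gene, up to 4 genes with the smallest p in each list, any gene of a list in which 5 or fewer moved in a direction, and the 5 genes most alike. Other named genes were chosen after their values were seen. A gene that the rule would name is not reported here. Replicate numbers come from the sample titles. Deviations of same-numbered HdR and WT libraries correlated at 0.16, 0.42 and 0.37 across genes. Of unlike numbers, HdR replicate 3 with WT replicate 1 gave 0.16 and HdR replicate 1 with WT replicate 3 gave 0.10. The others ran from -0.38 to -0.16. The labels give no pairing or batch. The numbers were taken as pairs in an alternative fit with the replicate number as a block, so its calls rest on a pairing read from these data. Further alternatives were other scalings (total, quantile, median of ratios), filters, a pseudocount of 0.1, voom weights, a threshold of 0.1 and leaving out each library.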

Additional observations from a re-analysis of the deposited data

How the results depend on the processing

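Of the 15049 genes tested, 4605 changed, 1904 higher and 2701 lower. The totals were 2884 after length correction (1621 higher, 1263 lower), 2144 with no filter (1017 higher, 1127 lower) and 8045 with voom weights (3398 higher, 4647 lower). Total scaling gave 917 higher and 4305 lower, quantile normalization 2351 higher and 2073 lower, and the replicate block 2749 higher and 4094 lower. With single libraries left out the totals ran from 427 to 6016, the higher genes from 197 to 2657 and the lower from 230 to 3359, the lowest without WT replicate 1 and the highest without WT replicate 2. Resident macrophage genes that rose numbered 4 with total scaling or no filter, and 4 to 9 with a library left out. Total scaling moved the median of all genes to -0.41 and that of the 10 genes to 0.66, a difference of 1.07 against 1.10. With it Adgre1 turned to -0.041, Cadm1 to -0.013, Ccr3 to -0.11, Epcam to -0.059 and Gp1ba to -0.16. Ccr3 ranged down to -0.16 and up to 0.48, Gp1ba from -0.15 to 0.24 and Gp1bb from -0.16 to 0.13 with single libraries left out. Gp1bb was 0.011 with median of ratios scaling, 0.14 with quantile normalization and 0.049 with voom weights. After length correction Itga2b was 0.050 and Prox1 0.098, both unchanged by the replicate block, and 0.0038 and 0.11 without HdR replicate 2. Itga2b was 0.083 with quantile normalization. None of these genes had passed. The cause was not tested. Beyond the calls given for C1qb, C1qc, Folr2, C1qa and Adgre1, the replicate block changed no call of the 10 genes. Depth limits Cd163 most, at 234 read pairs in 1 library.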
